A study of Mus musculus with 6 samples.

Results

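The monocyte chemoattractant group around *Ccl2* was described in 6 RNA sequencing libraries of mouse dorsal root ganglia (DRGs), the clusters of sensory nerve cell bodies beside the spinal cord. Its 9 genes were taken by symbol from the table of 48440 rows: the chromosome 11 ligands *Ccl2*, *Ccl7*, *Ccl8*, *Ccl11* and *Ccl12*, the receptors *Ccr1* and *Ccr2*, and the atypical receptors *Ackr1* and *Ackr2*. All 9 were found, and all 9 passed the filter on low counts that left 18593 genes for testing. DRGs of WT male mice received a microinjection on 1 side of either AAV5-*Gfp*, an adeno-associated virus that expresses green fluorescent protein (3 libraries), or AAV5-*V1+V2*, a mixture of viruses that express the variants of the long noncoding RNA *NIS-lncRNA* (3 libraries). Both groups therefore carried a virus and an injection, and the virus preparation and the transcripts it carried cannot be told apart. The age of the mice, the promoter of the vectors and the number of ganglia or animals behind a library are not given in the labels, and the deposited text gives tissue harvest at 5 weeks after microinjection but a comparison at 4 weeks. The targeted transcript was not analysed here, so the overexpression itself was not checked.

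CCL2 is a secreted chemokine that binds CCR2, a G protein–coupled receptor through which classical monocytes leave the blood and enter inflamed tissue. CCL7, CCL8 and CCL12 belong to the same monocyte chemoattractant family, whereas CCL11 (eotaxin) mainly attracts eosinophils through CCR3. Atypical receptors bind these chemokines without G protein signaling and carry or degrade them. In DRGs, CCL2 can come from neurons, glia, fibroblasts, endothelium and macrophages, and it is known for raising the excitability of sensory neurons.

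The 5 ligand genes share their structure. In GENCODE M21 (GRCm38), each had 3 exons on the plus strand of chromosome 11, in the order *Ccl2* (chr11:82035571-82037453), *Ccl7* (chr11:82045712-82047525), *Ccl11* (chr11:82057823-82062955), *Ccl12* (chr11:82101845-82103400) and *Ccl8* (chr11:82115185-82116799). The stretches of 66 coding bases around the adjacent cysteine codons, from which the CC chemokines take their name, are shown because the counts rest on telling these related genes apart. They are written 5′ to 3′ from the GENCODE transcripts, and capitals mark the 2 cysteine codons.
Ccl2: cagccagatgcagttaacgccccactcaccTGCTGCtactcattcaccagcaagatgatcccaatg
Ccl7: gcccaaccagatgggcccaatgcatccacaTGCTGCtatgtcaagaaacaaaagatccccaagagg
Ccl8: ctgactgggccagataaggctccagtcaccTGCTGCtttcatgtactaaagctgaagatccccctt
Ccl11: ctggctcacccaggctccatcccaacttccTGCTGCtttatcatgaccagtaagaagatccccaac
Ccl12: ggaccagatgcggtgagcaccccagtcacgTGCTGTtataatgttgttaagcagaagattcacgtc
In this stretch, *Ccl7* had 27 bases identical to *Ccl2* at the same position, and *Ccl8*, *Ccl11* and *Ccl12* each had 38. Over aligned coding sequences, identity ranged from 46.9% (*Ccl2* and *Ccl11*) to 66.3% (*Ccl7* and *Ccl11*). The values with *Ccl2* include its longer coding sequence, which has 447 bases against 294 for *Ccl7*. No stretch of 50 bases was shared between a ligand and any other annotated transcript.

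Total counts ranged from 32025612 to 34764282 per library. Levels are given as CPM, counts scaled to a common library size normalized by the TMM method, and differences as log2 fold changes of AAV5-*V1+V2* against AAV5-*Gfp* with their SE and the adjusted p of edgeR's quasi-likelihood test over all 18593 genes. Nothing in the labels says that the libraries of a group came from separate animals, so the p-values measure the spread between these libraries, which may be technical. An exact permutation test of a single value in 3 against 3 libraries cannot give a p below 0.1.

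Of the 9 genes, *Ccl2*, *Ccl8*, *Ccr1* and *Ccr2* rose with AAV5-*V1+V2* at an adjusted p under 0.05 (4 of 9), and 0 fell by edgeR's quasi-likelihood test. Of all genes tested, 10.1% were higher and 5.27% lower. At an unadjusted p under 0.05, 6 of the 9 were higher and 1 lower, against 3577 and 2878 of the 18593 genes tested. DESeq2 called 5 of the 9, edgeR's exact test 6 and limma-voom 3, all of them higher. Over all genes, DESeq2 called 2477 higher and 1488 lower of 30615 with a p-value. How many of these also had an adjusted p after its own filter on low counts was not counted. Of 18593, edgeR's exact test called 2370 and 1454, and limma-voom 1421 and 842. In 6 of the 9 (*Ccl2*, *Ccl7*, *Ccl8*, *Ccr1*, *Ccr2* and *Ackr2*) every AAV5-*V1+V2* library lay above every AAV5-*Gfp* library, a pattern that 23.4% of all genes tested had. The median log2 fold change of the 9 genes was 1.36, and that of all genes tested was -0.00030. Without AAV5-*Gfp* replicate 2 or without AAV5-*Gfp* replicate 3, 0 of the 9 passed, and without AAV5-*Gfp* replicate 1 only *Ccl8* did. The calls over all genes dropped in the same omissions. Without AAV5-*Gfp* replicate 2, 12 of 18917 genes were higher, and without replicate 3, 15 of 18947. Without AAV5-*Gfp* replicate 1, 257 of 18975 were higher. Without AAV5-*V1+V2* replicate 3, 6 passed, and of the 18945 genes then tested 2474 were higher and 1446 lower.

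**Figure D1:**
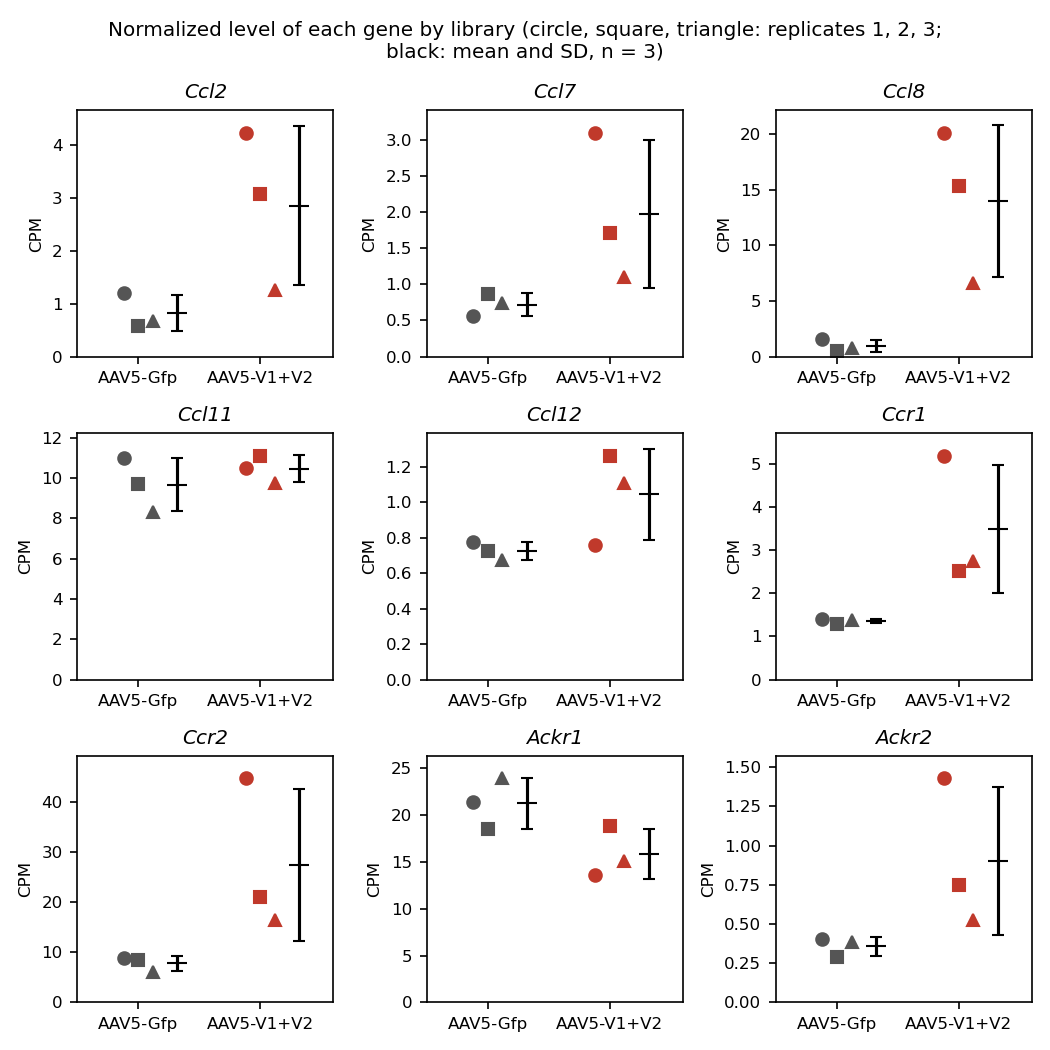
CPM of each of the 9 genes (y axis, from 0) in the 3 AAV5-*Gfp* libraries (gray) and the 3 AAV5-*V1+V2* libraries (red), with circles, squares and triangles for replicates 1, 2 and 3 and black bars for the mean and SD. *Ccl8* showed the largest fold between groups (0.936 against 14.0 CPM on average), while the groups overlapped for *Ccl11*, *Ccl12* and *Ackr1*.

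*Ccl2* encodes the chemokine that the study followed. Replicates 1 to 3 held 39, 20 and 21 counts with AAV5-*Gfp* and 139, 102 and 43 counts with AAV5-*V1+V2*, or 1.21, 0.577 and 0.673 CPM against 4.22, 3.06 and 1.25 CPM. The groups did not overlap, but AAV5-*V1+V2* replicate 3 exceeded AAV5-*Gfp* replicate 1 by only a few counts. The mean was 0.819 ± 0.340 CPM in AAV5-*Gfp* and 2.85 ± 1.50 CPM in AAV5-*V1+V2* (SD, n = 3), and *Ccl2* rose 3.47-fold (log2 fold change 1.79, SE 0.48, 95% interval 0.67 to 2.92, adjusted p = 0.0470). Among the 1872 genes higher in AAV5-*V1+V2*, it ranked 615 by fold change. The call rested on individual libraries: *Ccl2* missed the threshold without any 1 of 5 libraries and passed only without AAV5-*V1+V2* replicate 3. Over all 6 omissions, its adjusted p lay between 0.00987 and 0.160 and its fold between 2.64 and 4.54. The number of all genes higher fell from 1872 to 257, 12 and 15 without AAV5-*Gfp* replicates 1, 2 and 3. It was 1862 and 1020 without AAV5-*V1+V2* replicates 1 and 2. Since the libraries came from whole ganglia, more cells that carry a transcript and more transcript per cell cannot be told apart, here and for every gene below.

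*Ccl8* (MCP-2), a ligand that macrophages make and that in mice acts on CCR8, had the largest fold change of the 9 genes. Its counts were 50, 17 and 24 in AAV5-*Gfp* and 663, 510 and 228 in AAV5-*V1+V2*, or 1.55, 0.491 and 0.769 CPM against 20.1, 15.3 and 6.65 CPM. The lowest AAV5-*V1+V2* library stood several times above the highest AAV5-*Gfp* library. *Ccl8* rose 15.0-fold (log2 fold change 3.91, SE 0.53, 95% interval 2.67 to 5.14, adjusted p = 0.0144) and ranked 110 among the genes higher in AAV5-*V1+V2*. It lost the call without AAV5-*Gfp* replicate 2 (adjusted p = 0.0815) or AAV5-*Gfp* replicate 3 (0.0875), where only 12 and 15 of all genes were higher.

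*Ccl7* (MCP-3), which signals through CCR1, CCR2 and CCR3, had counts of 18, 30 and 23 in AAV5-*Gfp* and 102, 57 and 38 in AAV5-*V1+V2*. Its level was 0.720 ± 0.155 CPM against 1.97 ± 1.02 CPM, and the groups did not overlap. The difference just missed the threshold (log2 fold change 1.44, SE 0.40, 95% interval 0.51 to 2.38, adjusted p = 0.0512). It passed without AAV5-*V1+V2* replicate 3 (0.0164), and it also passed with DESeq2 (0.0116), edgeR's exact test (0.00887), no filter on low counts (0.0334) and total counts in place of TMM (0.0452).

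The other ligands showed smaller differences. *Ccl12* (MCP-5), a mouse CCR2 ligand, had counts of 25, 25 and 21 in AAV5-*Gfp* and 25, 42 and 38 in AAV5-*V1+V2* (log2 fold change 0.53, SE 0.25, 95% interval -0.06 to 1.12, adjusted p = 0.183). Its value in AAV5-*V1+V2* replicate 1, where *Ccl2* was highest, lay within the AAV5-*Gfp* range. *Ccl11* had counts of 355, 336 and 260 in AAV5-*Gfp* and 346, 370 and 335 in AAV5-*V1+V2*, with a log2 fold change of 0.11 (SE 0.13, 95% interval -0.18 to 0.41, adjusted p = 0.555). The groups overlapped for both genes, and an increase of *Ccl11* as large as that of *Ccl2* lies outside its interval.

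Both signaling receptors rose. *Ccr2*, the receptor of CCL2 on monocytes, had counts of 285, 295 and 191 in AAV5-*Gfp* and 1467, 701 and 562 in AAV5-*V1+V2*, or 8.83, 8.51 and 6.12 CPM against 44.6, 21.1 and 16.4 CPM. It rose 3.49-fold (log2 fold change 1.80, SE 0.37, 95% interval 0.93 to 2.67, adjusted p = 0.0248). *Ccr1*, a receptor for CCL7 and for CCL3, CCL5, CCL6 and CCL9 on monocytes, macrophages and neutrophils, had counts of 45, 45 and 43 in AAV5-*Gfp* and 171, 84 and 94 in AAV5-*V1+V2*, and it rose 2.56-fold (log2 fold change 1.36, SE 0.30, 95% interval 0.66 to 2.06, adjusted p = 0.0292). In both genes AAV5-*V1+V2* replicate 1 was the highest library and the other two were close to each other. Without AAV5-*Gfp* replicates 1, 2 and 3 in turn, the adjusted p was 0.0696, 0.0919 and 0.111 for *Ccr2* and 0.0840, 0.105 and 0.112 for *Ccr1*. Both calls thus needed every AAV5-*Gfp* library. In these omissions, 257, 12 and 15 of all genes were higher, against 1872 with every library. The fold stayed between 3.15 and 3.73 for *Ccr2* and between 2.51 and 2.60 for *Ccr1*. Of the 50-base stretches of *Ccr2*, 1.91% were shared with other genes.

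The atypical receptors differed in direction. *Ackr2* (D6, chr9:121898355-121911074, plus strand), a scavenger of inflammatory CC chemokines on lymphatic endothelium, had counts of 13, 10 and 12 in AAV5-*Gfp* and 47, 25 and 18 in AAV5-*V1+V2*, with no overlap but with an adjusted p of 0.0731 (log2 fold change 1.32, SE 0.42, 95% interval 0.33 to 2.31). It passed without AAV5-*V1+V2* replicate 3 (0.0293) and with edgeR's exact test (0.0328). *Ackr1* (chr1:173331886-173333750, minus strand), the Duffy antigen receptor that binds chemokines on venular endothelium and red cells, had counts of 688, 639 and 745 in AAV5-*Gfp* and 447, 625 and 517 in AAV5-*V1+V2* (log2 fold change -0.42, SE 0.15, 95% interval -0.76 to -0.08, adjusted p = 0.0884). *Ackr1* shared 361 of its 1405 exonic bases (25.7%) with *Cadm3*, a neuronal and glial adhesion gene on the same strand of chromosome 1. *Cadm3* fell from 199 ± 11.8 to 149 ± 13.4 CPM (log2 fold change -0.42, SE 0.09, adjusted p = 0.0265). How reads in the shared exon were assigned is not given in the sources used here, so the counts of *Ackr1* are uncertain, and the part of *Cadm3* in its value was not tested.

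**Figure D2:**
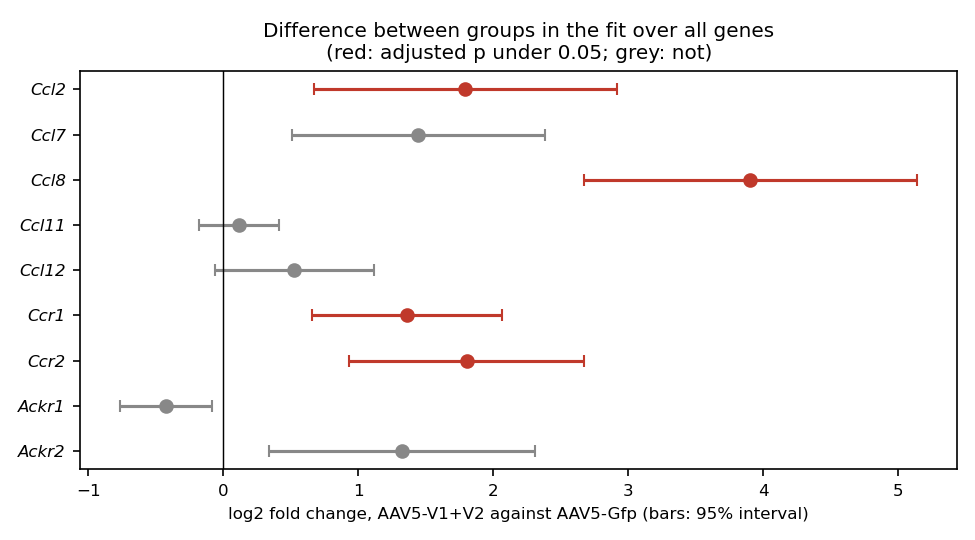
Log2 fold change of each gene in AAV5-*V1+V2* against AAV5-*Gfp* (x axis) with its 95% interval, red where the adjusted p was under 0.05 and gray otherwise. *Ccl8* lay farthest from 0 at 3.91, *Ccl7* (1.44) and *Ackr2* (1.32) had values close to that of *Ccr1* (1.36) with wider intervals, and only *Ackr1* lay below 0.

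Neighboring genes of the ligand cluster had different values. From *Ccl2* along chromosome 11, the log2 fold changes were 1.79 (*Ccl2*), 1.44 (*Ccl7*), 0.11 (*Ccl11*), 0.53 (*Ccl12*) and 3.91 (*Ccl8*). The next ligand, *Ccl1*, on the minus strand at chr11:82176657-82305690, had -0.68 (SE 0.21, adjusted p = 0.0643), with every AAV5-*V1+V2* library below every AAV5-*Gfp* library. The 2 genes that rose lay at the ends of the run of 5, and of the 3 between them *Ccl7* did not overlap between groups while *Ccl11* and *Ccl12* did. In the receptor cluster on chromosome 9, *Ccr1* (chr9:123962124-123968692, minus strand), *Ccr3* (log2 fold change 1.13, adjusted p = 0.130) and *Ccr2* (chr9:124101950-124113557, plus strand) had positive values. *Ccl2* also lies within the span of the antisense gene *Gm17268*, with which it shared 0 exonic bases. *Gm17268* had a log2 fold change of 1.27 (adjusted p = 0.0733).

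Promoter windows from RefSeq (GRCm38.p6), 250 bases before to 50 bases after the start of the gene, were held for 6 of the 9 genes, *Ccl8*, *Ccl12*, *Ccr1*, *Ccr2*, *Ackr1* and *Ackr2*. The windows of the neighbors *Ccl12* (chr11:82101595-82101894, plus strand) and *Ccl8* (chr11:82114935-82115234, plus strand) are shown because these genes had log2 fold changes of 0.53 and 3.91. They are written 5′ to 3′, and capitals mark a TATAAA match.
Ccl12: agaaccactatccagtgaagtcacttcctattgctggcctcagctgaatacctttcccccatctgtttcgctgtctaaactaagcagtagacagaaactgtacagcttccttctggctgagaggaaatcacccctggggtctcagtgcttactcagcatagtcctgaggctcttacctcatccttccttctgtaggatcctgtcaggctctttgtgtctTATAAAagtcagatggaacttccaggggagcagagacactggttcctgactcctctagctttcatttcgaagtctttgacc
Ccl8: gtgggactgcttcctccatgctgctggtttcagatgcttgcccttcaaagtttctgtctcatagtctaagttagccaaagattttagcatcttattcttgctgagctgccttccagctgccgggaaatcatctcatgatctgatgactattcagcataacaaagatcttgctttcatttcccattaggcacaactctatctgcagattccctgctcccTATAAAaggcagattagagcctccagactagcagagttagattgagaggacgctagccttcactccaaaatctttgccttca
The match began at -31 in *Ccl12* and at -32 in *Ccl8*, and 13.6% of the 32851 RefSeq windows held these letters on either strand. No window of the 6 held the other motifs searched on both strands. These were an NF-kappaB-type motif (GGG and TTTCC separated by any 2 bases, in 1.63% of all windows), an AP-1-type motif (TGANTCA, 7.81%), an interferon response-type motif (TTTC and TTTC separated by any 2 bases, 3.44%) and an ETS motif (CCGGAAGT, 3.89%). A missing match says only that these letters were not in the window.

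Compared per kilobase of exon, the order of levels differed between groups. The reads of *Ackr1* are uncertain because of the exon shared with *Cadm3*, so its place in both orders is uncertain too. In AAV5-*Gfp*, *Ackr1* was highest (15.1 ± 1.93 CPM per kilobase) and *Ccl11* followed (8.94 ± 1.23), and neither overlapped with the next gene in its 3 libraries. *Ccl8* (1.83 ± 1.07) overlapped with *Ccl12* (1.35 ± 0.0947), *Ccl12* with *Ccr2* (1.16 ± 0.219), *Ccr2* with *Ccl7* (0.899 ± 0.193), and *Ccl7* with *Ccl2* (0.720 ± 0.299). *Ccr1* (0.479 ± 0.0181) and *Ackr2* (0.115 ± 0.0196) were lowest and did not overlap with their neighbors. In AAV5-*V1+V2*, *Ccl8* came first with 27.5 ± 13.4 CPM per kilobase, though its lowest library lay below the highest of *Ackr1* (13.4; mean 11.3 ± 1.90), which in turn overlapped with *Ccl11* (9.67 ± 0.625). *Ccr2* (4.04 ± 2.24), *Ccl2* (2.50 ± 1.32), *Ccl7* (2.46 ± 1.28), *Ccl12* (1.94 ± 0.479) and *Ccr1* (1.23 ± 0.524) followed, each overlapping with its neighbor in this run, and *Ackr2* (0.288 ± 0.150) was lowest without overlap.

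The mix of the 5 ligands is given per kilobase as a description, with no test. Their summed level was 16.4, 12.9 and 11.97 CPM per kilobase in AAV5-*Gfp* and 58.1, 47.4 and 26.6 in AAV5-*V1+V2*. *Ccl11* made up 65.3% ± 3.96 of that sum in AAV5-*Gfp* and 24.1% ± 8.88 in AAV5-*V1+V2* (SD, n = 3), whereas *Ccl8* made up 12.8% ± 5.51 and 60.0% ± 9.84, and neither share overlapped between groups. *Ccl2* held 5.12% ± 1.27 and 5.40% ± 1.15, so that its share of the ligand sum overlapped between groups while its level was higher. *Ccl7* (6.78% and 5.46%) and *Ccl12* (9.91% and 5.05%) made up the rest.

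**Figure D3:**
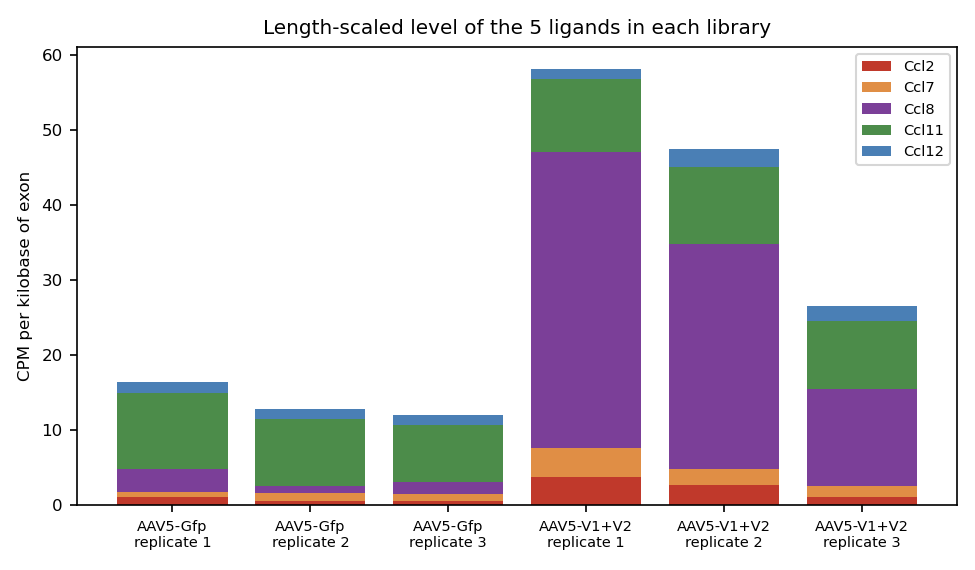
Level of the 5 ligands in CPM per kilobase of exon (y axis), stacked for each of the 6 libraries. *Ccl8* (purple) averaged 12.8% of the stack in AAV5-*Gfp* and 60.0% in AAV5-*V1+V2*, while the *Ccl11* layer (green) stayed between 7.70 and 10.3 CPM per kilobase in all libraries.

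Ratios within a library ask whether one gene moved by more or less than another. Over 22 ratios, the smallest exact two-sided permutation p was 0.1, the smallest that the design allows, and the smallest Benjamini-Hochberg adjusted p was 0.138, so none passed a threshold. The log2 ratio of *Ccl8* to *Ccl2* was 0.33, -0.20 and 0.17 in AAV5-*Gfp* and 2.23, 2.28 and 2.32 in AAV5-*V1+V2*. It was thus nearly the same in the 3 AAV5-*V1+V2* libraries, although their *Ccl2* levels ranged from 1.25 to 4.22 CPM. The log2 ratio of *Ccl2* to *Ccr2* was -2.77, -3.67 and -3.01 in AAV5-*Gfp* and -3.37, -2.74 and -3.61 in AAV5-*V1+V2*, a mean difference of -0.09 (exact p = 1). Ligand and receptor thus differed between groups by a similar factor, with ratios that overlapped. The ratio of *Ccl7* to *Ccl2* also overlapped (difference -0.35, exact p = 0.5), as did that of *Ccl12* to *Ccl2* (-1.14, exact p = 0.2). The ratios of *Ccl2* to *Ackr1* (2.01) and of *Ackr2* to *Ackr1* (1.46) were higher in all 3 AAV5-*V1+V2* libraries (exact p = 0.1 for each), with the reads of *Ackr1* uncertain as above.

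The genes whose pattern over the 6 libraries lay nearest to that of *Ccl2* were *Bst2*, *Gbp9*, *H2-Q1*, *Timd4* and *Ctsw*, with a mean absolute difference of centered log2 CPM between 0.151 and 0.234 among 1672 candidates. Candidates were the tested genes with a mean of at least 1 CPM and a range over the libraries of at least 0.5 times that of *Ccl2*, which left *Ccl11*, *Ccl12*, *Ackr1* and *Ackr2* without a rank. *H2-Q1* belongs to a family of near-identical class I genes, and its counts may include reads of its relatives. By the same measure *Ccr2* ranked 174, *Ccl7* 517, *Ccr1* 601 and *Ccl8* 1323, and the points share the libraries and their depth. The values were centered but not scaled. A gene with a larger difference between groups, such as *Ccl8*, therefore ranks far from *Ccl2* even where both move together.

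Other genes of the pathway were counted in lists. Of 8 other CC ligands, 7 were tested, 5 rose and 0 fell, with a median log2 fold change of 2.18. They included *Ccl5*, a T cell and macrophage product that binds CCR1 and CCR3 (log2 fold change 4.09, SE 0.79, adjusted p = 0.0224), *Ccl6* (2.39, SE 0.47, adjusted p = 0.0225) and *Ccl9* (2.18, SE 0.41, adjusted p = 0.0204), both myeloid ligands of CCR1. The macrophage inflammatory proteins *Ccl3* (2.75, adjusted p = 0.0336) and *Ccl4* (1.82, adjusted p = 0.0368), named after their values were seen, completed the 5, from counts of 0 to 6 in AAV5-*Gfp*. DESeq2 called 4 of the list higher and 1 lower, edgeR's exact test 5 and 1, and limma-voom 3 and 0. Of 8 other receptors, 7 were tested, 3 rose and 0 fell (median 1.13). Among these were the atypical receptor *Ccrl2* (2.48, adjusted p = 0.0278) and the chemerin receptor *Cmklr1* (1.55, adjusted p = 0.0366), and limma-voom called 1 of the list higher and DESeq2 called 4.

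Of 18 signaling genes downstream of CCR2, 7 rose and 0 fell (median 0.28). The exchange factors *Dock2* (2.16, SE 0.31, adjusted p = 0.0144) and *Vav1* (2.25, SE 0.34, adjusted p = 0.0144) and the GTPase *Rac2* (2.24, SE 0.33, adjusted p = 0.0144) had the smallest p, and all are hematopoietic genes. Of 20 inducers and regulators of *Ccl2* expression, 18 were tested, 12 rose and 0 fell (median 1.14). Among these were the cytokine *Tnf* (3.05, SE 0.46, adjusted p = 0.0144), the mRNA decay factor *Zfp36* (1.20, SE 0.18, adjusted p = 0.0146) and the NF-kappaB subunit *Nfkb2* (1.68, SE 0.30, adjusted p = 0.0184). *Elf1*, a transcription factor that the study examined for the lncRNA, had 63.9 and 85.1 CPM on average (log2 fold change 0.41, SE 0.14, adjusted p = 0.0898), and it was named after its value was seen.

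Markers of the cells that can carry these transcripts are given beside them. Of 12 macrophage markers, 11 rose and 0 fell (median log2 fold change 1.74), and their summed level was 185 to 252 CPM in AAV5-*Gfp* and 541 to 1508 CPM in AAV5-*V1+V2*. The complement genes *C1qa* (1.93, SE 0.26, adjusted p = 0.0144), *C1qb* (1.70, SE 0.23, adjusted p = 0.0144) and *C1qc* (1.78, SE 0.28, adjusted p = 0.0151) had the smallest p. The exception, named after its value was seen, was *Cd163*, a scavenger receptor of resident macrophages, with 8.19 and 8.50 CPM (log2 fold change 0.05, adjusted p = 0.808). Of 8 classical monocyte markers, 5 rose and 0 fell (median 1.91, sums of 78.2 to 83.0 against 115 to 216 CPM), among them *Ly6c2* (2.37, SE 0.34, adjusted p = 0.0144), whereas DESeq2 called 6 higher and limma-voom 3. T cell markers (5 of 6 higher, sums of 2.08 to 6.38 against 24.0 to 55.0 CPM) and B cell markers (4 of 4 higher, 3.69 to 6.94 against 39.3 to 89.8 CPM) had the highest medians, 3.36 and 3.42. AAV5-*V1+V2* replicate 1 was the highest library for these 4 sums as well as for *Ccl2*, *Ccl7*, *Ccl8*, *Ccr1*, *Ccr2* and *Ackr2*. The part of these cells in the chemokine values was not tested.

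The same genes were set against the summed markers of their own library. The log2 ratio of *Ccl2* to the macrophage sum was -7.59, -8.52 and -7.90 in AAV5-*Gfp* and -8.45, -7.97 and -8.64 in AAV5-*V1+V2* (difference -0.35, exact p = 0.4). The ratio of *Ccl8* was higher in all 3 AAV5-*V1+V2* libraries (difference 1.83, exact p = 0.1), and those of *Ccl7* (-0.69), *Ccl12* (-1.48), *Ccr1* (-0.71) and *Ccr2* (-0.26) were lower in all 3 (exact p = 0.1 for each). A single marker weighed on this sum. *Lyz2*, named after its value was seen, averaged 82.4 of its 228 CPM in AAV5-*Gfp* and 559 of its 947 CPM in AAV5-*V1+V2*. When the markers were averaged on the log2 scale instead of summed, the differences were 0.00010 for *Ccl2* (exact p = 1), -0.35 for *Ccl7* (exact p = 0.3), -0.36 for *Ccr1* (exact p = 0.3) and 0.090 for *Ccr2* (exact p = 0.9), and those of *Ccl8* (2.17) and *Ccl12* (-1.14) stayed without overlap (exact p = 0.1). To the monocyte sum, *Ccr2* was higher by 0.83 (exact p = 0.1), or by 0.13 (exact p = 0.6) with the averaged markers. To the T cell sum, *Ccr2* was lower by a log2 ratio difference of -1.71 (exact p = 0.1).

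**Figure D4:**
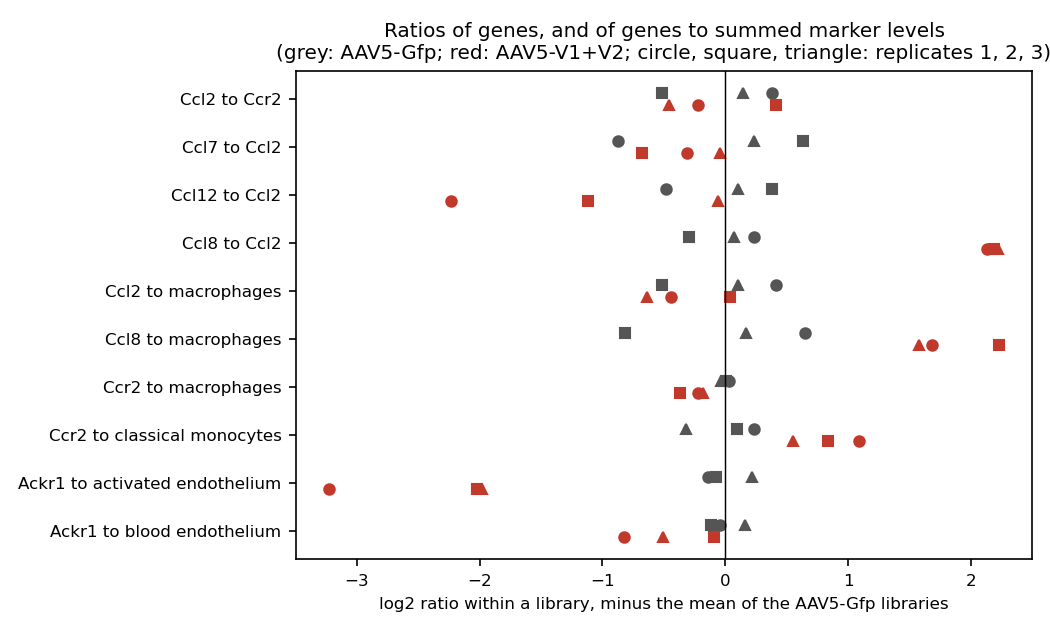
Log2 ratio of a gene to another gene or to a summed marker level within a library (x axis), minus the mean of the AAV5-*Gfp* libraries, for AAV5-*Gfp* (gray) and AAV5-*V1+V2* (red), with circles, squares and triangles for replicates 1, 2 and 3. The *Ccl8* to *Ccl2* ratio differed by 2.17 between groups without overlap, whereas those of *Ccl2* to *Ccr2* (-0.09) and of *Ccl2* to macrophages (-0.35) overlapped.

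Stromal, eosinophil, neuronal and glial markers were counted in the same way. Of 7 fibroblast markers, 2 rose and 0 fell, *Col3a1* (log2 fold change 0.90, SE 0.14, adjusted p = 0.0146) and *Col1a2* (0.84, SE 0.22, adjusted p = 0.0425), and the list median was 0.43. The other markers, named after their values were seen, had 1.18 (*Col1a1*), 0.43 (*Pdgfra*), 0.22 (*Dcn*), 0.06 (*Pdgfrb*) and 0.01 (*Lum*). The ratio of *Ccl11* to the fibroblast sum was lower in all 3 AAV5-*V1+V2* libraries (-0.53, exact p = 0.1). With the averaged markers the difference was -0.38 (exact p = 0.1). The ratio of *Ccl2* to the fibroblast sum overlapped (0.94, exact p = 0.2). Of 6 eosinophil markers, the target cells of CCL11, 2 rose and 0 fell (median 1.16), among them the granule gene *Prg2* (1.28, SE 0.35, adjusted p = 0.0489), whereas DESeq2 called 4 higher and limma-voom 0. Of 14 neuronal markers, 0 rose and 1 fell, *Rbfox3* (-0.93, SE 0.19, adjusted p = 0.0256), by the quasi-likelihood test, while DESeq2 and edgeR's exact test each called 5 lower. The neuronal sum was 9809 to 10571 CPM in AAV5-*Gfp* and 6245 to 9163 CPM in AAV5-*V1+V2*. Of 8 glial markers, 0 passed by edgeR's quasi-likelihood test in either direction (median -0.02), with 0 higher and 1 lower at an unadjusted p under 0.05 and 0 with the other tools.

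The endothelium that carries the atypical receptors was read from 3 lists. Of 10 blood endothelial markers, *Pecam1* rose (0.88, SE 0.19, adjusted p = 0.0269) and *Flt1* fell (-0.42, SE 0.10, adjusted p = 0.0378), and the sums overlapped (245 to 268 against 245 to 294 CPM). Of 4 markers of activated endothelium, the adhesion molecules *Vcam1* (2.03, SE 0.24, adjusted p = 0.0139) and *Icam1* (2.34, SE 0.35, adjusted p = 0.0144), which other cells also express, rose and 0 fell. Of 6 lymphatic markers, 0 passed by edgeR's quasi-likelihood test, the other tools or an unadjusted p under 0.05 (median 0.15). Their sums did not overlap, with 29.0 to 32.3 CPM in AAV5-*Gfp* and 32.9 to 35.1 CPM in AAV5-*V1+V2*. The ratio of *Ackr1* to the blood endothelial sum overlapped between groups (-0.48, exact p = 0.2). That to the activated endothelial sum was lower in all 3 AAV5-*V1+V2* libraries (-2.41, exact p = 0.1). *Vcam1* and *Icam1* made up most of this sum, with 52.3 and 27.6 of 82.5 CPM on average in AAV5-*V1+V2*. *Selp* and, named after its value was seen, *Sele* did not pass (adjusted p = 0.119 and 0.145). The part of other cells in this ratio was not tested. The ratio of *Ackr2* to the lymphatic sum was higher in all 3 AAV5-*V1+V2* libraries (0.90, exact p = 0.1).

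Other lists were held for other cells of the ganglion. Of 5 neutrophil markers, 1 rose and 0 fell by edgeR's quasi-likelihood test (median 0.84), while DESeq2 called 5 higher and limma-voom 0. Mast cell (median -0.16) and erythrocyte (median 0.11) markers gave 0 calls of 5 each with every tool, with 0 and 1 at an unadjusted p under 0.05, and their sums overlapped between groups. In every list with 0 lower by the quasi-likelihood test, DESeq2, edgeR's exact test and limma-voom also called 0 lower, apart from the 1 CC ligand above, and at an unadjusted p under 0.05 the lower genes were 1 CC ligand, 3 signaling genes and 1 glial gene.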

How the data were processed

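Total RNA of microinjected DRGs was sequenced with a stranded kit, in 3 libraries each for AAV5-*Gfp* and AAV5-*V1+V2*. The authors deposited the counts of reads on each gene symbol, not normalized. The aligner, counter, annotation and use of strand are not given in the sources used here, and the build was GRCm38 (mm10) per the submitters' processing notes. Counts were analyzed in R 4.3.3 with edgeR 4.0.16 (filterByExpr by group, TMM, glmQLFit and glmQLFTest, Benjamini-Hochberg over 18593 genes, threshold 0.05). The SE was derived from the coefficient and its F statistic. Ratios used CPM with 0.1 added to both terms, a sum of markers as the second term, and exact permutation over 20 assignments, and the pairs of a gene and a marker list were chosen after the counts were seen. Positions and lengths were taken from GENCODE M21, and promoters from RefSeq.

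Total counts of 32025612 to 34764282 set the precision, and 3 counts or fewer in every library of a group were taken as a floor, which covers counting error only. No pair of libraries of a group agreed within sampling noise (chi-square per degree of freedom at least 8.79).

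The 9 genes and all lists were chosen with earlier results of these data known. The text names the 9 genes, at most 3 genes per list (smallest p), the 5 genes nearest to *Ccl2* in pattern (mean of at least 1 CPM, range at least 0.5 times its own), and others said to have been named after their values were seen. Genomic neighbors and genes with shared exons were named by position. Alternatives covered normalization, filter, tool (DESeq2 1.42.0, limma-voom with limma 3.58.1, edgeR's exact test), a replicate block, thresholds, marker averaging and leaving out each library. The edgeR quasi-likelihood fit was tested on simulated data, and the other calculations were not. The lncRNA itself was not analysed here, and some genes of the lists are not reported here.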

Additional observations from a re-analysis of the deposited data

How the results depend on the processing

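All 9 genes kept the direction of their log2 fold change under every alternative run. *Ccl2* ranged from 1.40 to 2.18 when 1 library was left out, and with limma-voom it was 1.68 with an adjusted p of 0.0837. The number of the 9 genes higher was 4, and between 0 and 6 with 1 library left out. The number lower was 0, and 1 (*Ackr1*) at an unadjusted p under 0.05. Over all genes, 1872 were higher and 980 lower, against 3577 and 2878 at an unadjusted p under 0.05, 1052 and 47 with a 2-fold change, and 1488 lower with DESeq2. With 1 library left out, between 12 and 2474 were higher and between 0 and 1446 lower. The 12 and 0 came without AAV5-*Gfp* replicate 2, where 2916 and 2029 had an unadjusted p under 0.05. With markers averaged on the log2 scale, the ratio of *Ccl2* to macrophages differed by 0.00010, that of *Ccr2* to macrophages by 0.090 and that of *Ccr1* to monocytes by -0.32 (0.38 with the sum). The ratio of *Ccl2* to *Ccr2* ranged from -0.35 to 0.10 with 1 library left out. On the longest transcript, *Ackr1* had 18.4 and 13.7 CPM per kilobase. The cause of these changes was not tested, and leaving out a library also leaves fewer samples. Libraries with the same replicate number correlated by 0.042, 0.061 and 0.154 in their deviations. Those with different numbers had values from -0.148 to 0.081. These few values cannot say whether libraries of the same number shared a batch, and the labels give no pairing. With the number as a replicate block, 4 of the 9 genes were higher, and *Ccl2* had an adjusted p of 0.0133. Over all genes, 2118 were then higher and 1341 lower. *Ccl2* itself rested on 20 to 139 counts per library.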
